A study of Mus musculus with 4 samples.

Results

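Axon guidance ligand and receptor genes were followed through the sites bound by tyrosine-phosphorylated STAT3 (pSTAT3) in oligodendrocyte progenitor cells. Genes were chosen by name: semaphorins (Sema), plexins (Plxn), ephrins (Efna, Efnb), Eph receptors (Epha, Ephb), UNC5 receptors (Unc5), numbered slits, ROBO receptors, netrins and neuropilins (Nrp), and Dcc. The deposited table of reproducible pSTAT3 regions listed 56 such names among 15255 gene names, and 129 of its 12925 regions (0.998%) were listed for them, in 132 pairs of a gene and a region. Of the 56 names, 52 were guidance genes, out of 69 guidance genes of these families in the reference gene table. The other 4 were not counted as guidance genes: Unc50, Unc5cl and the antisense transcripts Plxna4os2 and Plxna4os3.

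The cells were primary cortical oligodendrocyte progenitors of C57BL/6 mice, kept dividing with 10 ng/ml of PDGF-AA and 20 ng/ml of bFGF. All received 100 ng/ml of CNTF, a cytokine that activates STAT3 through the gp130 receptor, for 15 min. The series held 2 pSTAT3 ChIP libraries, called replicate 1 and replicate 2 here, and 2 input libraries, which were not analysed here. No untreated sample was part of the data used, so no comparison between conditions was possible and the values describe CNTF-treated cells. The protocol describes pooling of lysed cells and no label says that the ChIP libraries came from separate cultures, and differences between them may be technical. A region near a gene gives no level of its RNA, and the progenitor identity of the cells could not be checked against marker expression in these data.

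Guidance cues steer growing axons and migrating cells by attraction or repulsion. Secreted and membrane-bound ligands bind receptors that reorganise the cytoskeleton: semaphorins bind plexins, with neuropilins as partners of most secreted ones, ephrins bind Eph receptors, netrins bind DCC and UNC5 receptors, and slits bind ROBO receptors. In the oligodendrocyte lineage, semaphorins, netrins and ephrins are known to guide progenitor migration and to influence differentiation and myelination. STAT3 is a transcription factor that enters the nucleus once its tyrosine is phosphorylated.

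Region midpoints lay near a start of a guidance gene in a larger share of genes than over all protein-coding genes. Within 1 kb of a start listed in the authors' table, 17 of the 69 guidance genes (24.6%) had a region, where 12.8% of 21887 protein-coding genes did. Within 5 kb, the share was 23 of 69 (33.3%) against a background of 18.1%. Within 25 kb, 35 of 69 (50.7%) had a region and the background was 34.4%. These shares were not tested, since the members were chosen with results of these data known. Any listed transcript start counted, internal ones included, for guidance genes and for the background alike. The Plxnd1 region counted within 5 kb lay 17 bp beyond the 3′ end of the gene. Within 1 kb, the regions counted for Sema3b and Ephb3 lay 6928 and 6406 bp from the outermost listed start. The Plxnb2 region counted there lay downstream of the RefSeq starts of Plxnb2, inside the gene. At 5 kb, ligands and receptors had near-equal shares, with 11 of 35 ligand genes (31.4%) and 12 of 34 receptor genes (35.3%). By family, 8 of 20 semaphorins, 3 of 9 plexins, both neuropilins, 2 of 8 ephrins, 6 of 14 Eph receptors, 1 of 4 netrins and 1 of 5 DCC and UNC5 genes had a region within 5 kb. None of the 3 slit and 4 ROBO genes did.

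**Figure D1:**
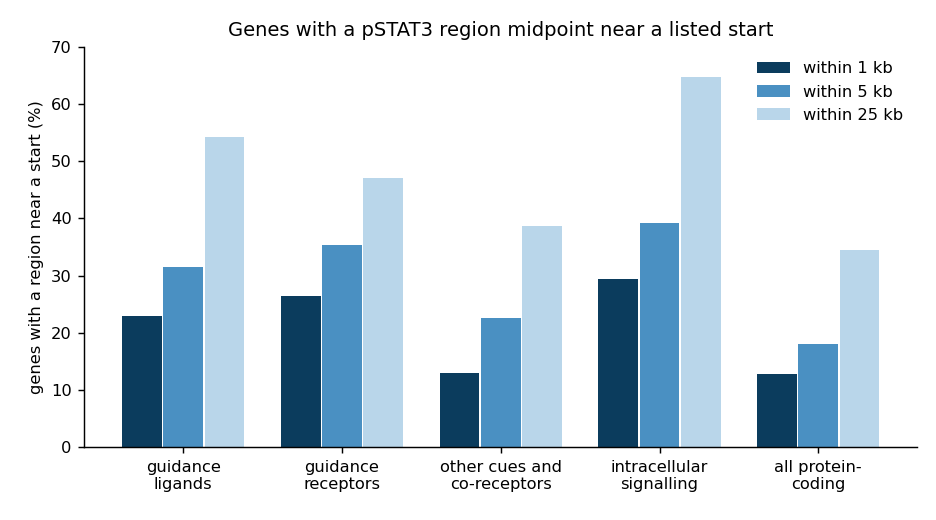
Bars give the percent of genes with a pSTAT3 region midpoint within 1, 5 or 25 kb (dark to light) of a listed transcript start, for guidance ligands, guidance receptors, 2 lists of other guidance pathway genes and all protein-coding genes. Ligands and receptors stand at 31.4% and 35.3% within 5 kb, where all protein-coding genes stand at 18.1%.

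Guidance genes were also long, which bears on how often a region fell inside them. Their median span was 46.3 kb, against 17.2 kb for all protein-coding genes. A region midpoint lay inside 37 of the 69 guidance genes (53.6%) and inside 19.6% of protein-coding genes. Counted per length, the 82 regions inside guidance genes came to 6.23 per Mb, and those inside all protein-coding genes to 6.97 per Mb. Among genes of 100 kb or longer, 27 of 32 guidance genes (84.4%) held a region where the background was 59.7%, but the density was 5.76 per Mb in these guidance genes and 5.95 per Mb in all genes of that length. Guidance genes of that length had a median span of 254.9 kb and all such genes 171.8 kb. Per unit of length, long guidance genes therefore carried about as many regions as other long genes. Guidance genes under 100 kb held 13.1 regions per Mb, from 11 regions, and all such genes 8.46 per Mb.

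The 129 regions were spread from the starts of their genes to 863 kb away. Midpoints lay within 1 kb of a start of the gene itself in 18 regions (13.95%, exact Clopper-Pearson 95% interval 8.48 to 21.2%, which covers counting error over regions only), within 5 kb in 33 (25.6%), within 25 kb in 66 (51.2%) and farther away in 63 (48.8%), of which 31 were over 100 kb away. That interval treats regions as independent, although several genes had many of them, with 10 for Sema6a. Counting the start of any gene, 34 regions (26.4%) lay within 1 kb of one, and 23.9% of all regions did. For 16 of the 34 the only such start was that of another gene. The nearest listed start was that of the gene itself for 80 regions, 76 of them listed for a guidance gene and 4 for the other names, and that of another gene for 49. By position, taken over the listed transcripts without their exons, 79 regions (61.2%) fell inside a member gene, 37 upstream of one and 15 downstream, with 2 regions inside Plxna4 and upstream of an antisense name counted on both sides. Over all regions, 57.0% fell inside a listed transcript of any gene, a wider count than the one over member genes only. Where another gene's start was nearer to a region whose values are given singly, that gene is named, and which gene such a region serves was not tested.

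Enrichment at these regions was near that of all pSTAT3 regions. Strength is given as fold enrichment, the pileup of ChIP fragments at the summit over local background, as the authors' peak caller computed it for each library. The median was 10.6-fold in replicate 1 and 8.19-fold in replicate 2, where all regions had 10.4-fold and 7.51-fold. Replicate 1 was the higher library in 124 of the 129 regions (96.1%) and in 95.1% of all regions, so the offset between libraries was about as common over all regions. Ranking therefore used the lower fold of the replicates, which ran from 4.47 to 32.5 over the 129 regions, where the highest of all regions was 57.0. In the strongest 10% of all regions, those with a lower fold of 17.9 or more, 14 of the 129 (10.9%) were found. Replicate summits lay a median of 19 bp apart and within 100 bp of each other in 126 regions. The Spearman correlation of the log2 folds of both libraries over the 129 regions was 0.91, a description of regions that share both libraries. Only regions reproducible between the libraries were in the table, so close summits and like folds were in part set by that selection.

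**Figure D2:**
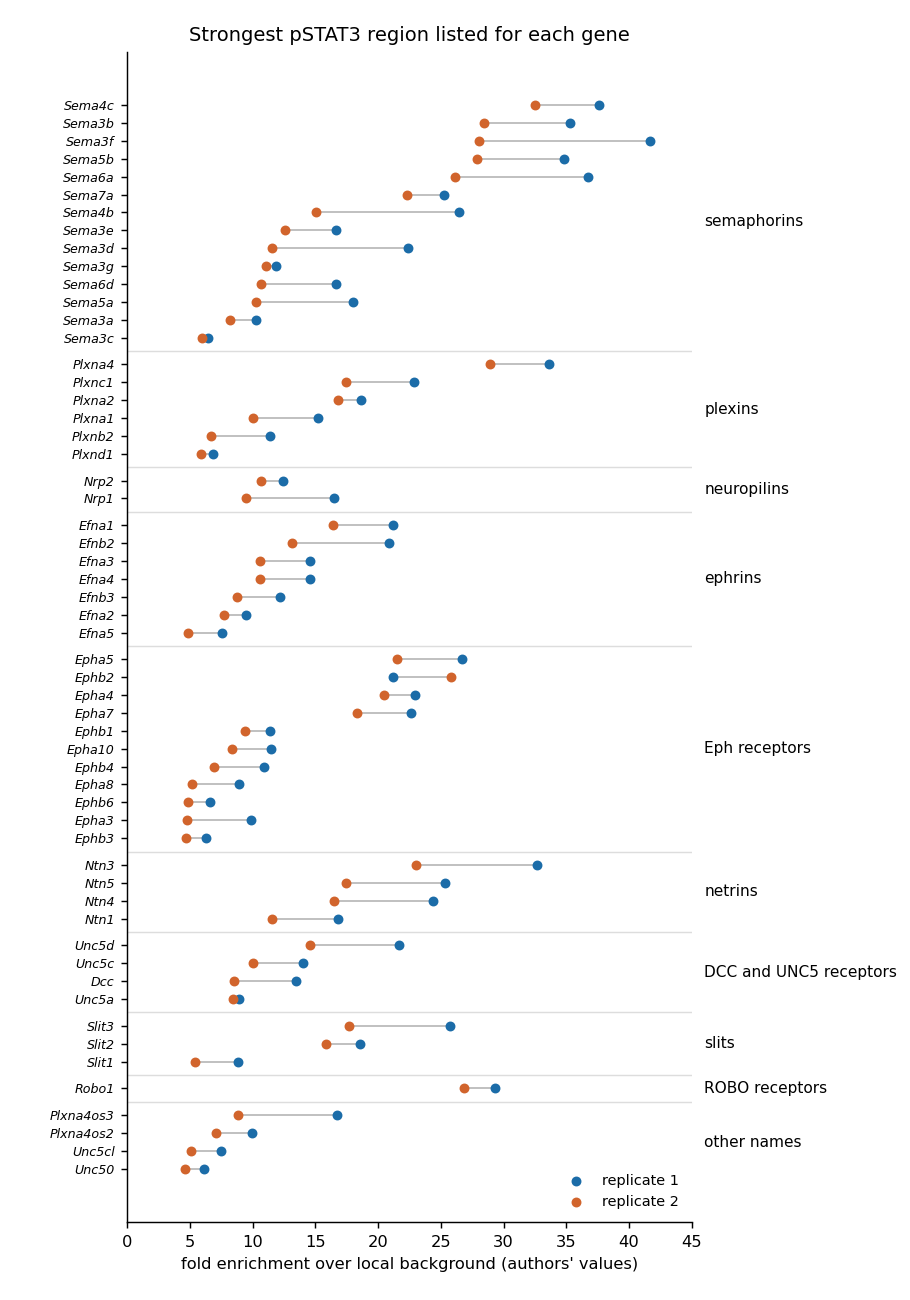
Each line is a gene, with the fold enrichment of its strongest listed pSTAT3 region in replicate 1 (blue) and replicate 2 (orange), grouped by family and ordered by the lower of both values. Semaphorins span the widest range, from Sema3c at 6.44 and 5.95 to Sema4c at 37.6 and 32.5, and Ephb2 is the gene drawn with replicate 2 above replicate 1.

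Semaphorins, the largest family of guidance ligands, held 45 regions in 14 genes, with a median lower fold of 8.70. Their 5 strongest regions were listed for Sema4c, Sema3b, Sema3f, Sema5b and Sema6a, each with at least 26.1-fold enrichment in both libraries. None of the 5 lay within 1 kb of a start of its gene.

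Among the secreted class 3 semaphorins, the ligands that act through neuropilins, Sema3e had its region at the start itself. The region at chr5:14025162-14025563 (GRCm38) had its midpoint 45 bp downstream of a start, with a fold of 16.6 in replicate 1 and 12.5 in replicate 2 and pileups of 94 and 48 fragments. Sema3e differs from its class in that the protein binds Plexin-D1 without a neuropilin. Promoter windows of 59 of the 69 guidance genes were searched. That of Sema3e was the only one with both a region and a STAT-type inverted repeat (TTCNNNGAA). The stretch with the repeat is shown for that reason. It lies at chr5:14025309-14025325 on the plus strand (RefSeq, GRCm38.p6), and the capitals mark the repeat, 41 to 49 bases downstream of the RefSeq start (the start counted as 0).
Sema3e: ggagacacTTCCTAGAA
Summits of this region lay 83 and 81 bp downstream of the same start in replicates 1 and 2, beyond the end of the repeat.

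Sema3b and Sema3f, which repel axons through neuropilin-2, lie on chromosome 9 and carried strong regions away from their starts. For Sema3b, the region at chr9:107612692-107613380 had 35.3-fold and 28.4-fold enrichment in replicates 1 and 2, with pileups of 207 and 110. It lay 3.81 kb upstream of the Sema3b start and 3011 bp from a start of Gnai2, a G protein subunit gene. Near the nearest internal start of Sema3b, 135 bp upstream, a second region reached only 5.93-fold and 4.58-fold. Sema3f had 4 regions. The strongest, at chr9:107659500-107660385, had 41.7-fold and 28.0-fold enrichment with pileups of 246 and 112, the highest replicate 1 fold of any region of these genes. It lay 21558 bp beyond the far end of Sema3f and 414 bp from a start of Slc38a3, an amino acid transporter gene. Inside the gene, 2.75 kb downstream of a start, another region had 17.5-fold and 14.3-fold enrichment. Both remaining regions lay beyond the gene and nearer to a start of Gnat1, at 8.65-fold and 8.45-fold and at 5.39-fold and 5.10-fold.

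The other class 3 genes had 1 region each. Sema3d had 22.4-fold and 11.5-fold enrichment at 125 kb inside the gene (chr5:12507466-12507940), a wide gap between libraries. For Sema3a, the textbook repellent of axons and progenitors, the region lay 128 kb inside the gene and had 10.3-fold and 8.22-fold enrichment. No reproducible region was listed near the Sema3a start, but weak peaks of both libraries overlapped there, 4.55-fold at 91 bp and 3.97-fold at 240 bp downstream. At Sema3c the midpoint was 53 bp upstream of a start, with 6.44-fold and 5.95-fold enrichment. Sema3g had 11.9-fold and 11.0-fold enrichment 11.1 kb upstream, at a site 3 bp from a start of Nisch.

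Of the membrane-bound class 4 semaphorins, which act mainly on B-type plexins, 2 genes were listed. Sema4c, a ligand of Plexin-B2, had the strongest region of all guidance genes at chr1:36548091-36548650, with 37.6-fold and 32.5-fold enrichment and pileups of 214 and 126. It lay 269 bp beyond the 3′ end of the gene and 925 bp from a start of Ankrd39. A second Sema4c region, 530 bp downstream of a start, had 10.9-fold and 11.65-fold enrichment, so the libraries were nearly level there. Sema4b held 5 regions. One covered its start (chr7:80186426-80187302, midpoint 23 bp downstream) with 16.5-fold and 12.3-fold enrichment and pileups of 97 and 48. The sequence before the Sema4b start is shown because both summits fall in it, at −69 in replicate 1 and −92 in replicate 2, counted from the RefSeq start. It covers chr7:80186620-80186869, plus strand (RefSeq, GRCm38.p6), and the capitals mark the stretch from 5 bases before to 5 bases after the summits.
Sema4b: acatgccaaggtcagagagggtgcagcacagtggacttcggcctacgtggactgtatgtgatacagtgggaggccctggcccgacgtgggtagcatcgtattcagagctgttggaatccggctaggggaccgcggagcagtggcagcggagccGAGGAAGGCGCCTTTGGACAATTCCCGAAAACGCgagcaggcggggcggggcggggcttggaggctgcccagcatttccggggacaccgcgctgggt
The strongest Sema4b region was not this one but a site inside the gene, 18.2 kb from a start (chr7:80216569-80216964), with 26.4-fold and 15.0-fold enrichment. Its nearest listed start was that of Cib1, 15.7 kb away. The other 3 Sema4b regions were weaker than both, the weakest with a lower fold of 6.66.

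Class 5 semaphorins carry thrombospondin repeats and include Sema5a, known as an inhibitor of axon growth. Sema5b had 5 regions, all inside the gene. The strongest, 23.1 kb from its nearest start (chr16:35564278-35564989), had 34.8-fold and 27.9-fold enrichment with pileups of 198 and 108. The remaining 4 lay in a cluster 61.5 to 73.01 kb from the outermost start, with lower folds of 6.40 to 14.8. For all 5, the listed start of Gm5963 was nearer than that of Sema5b. Sema5a had 2 regions deep inside the gene, at 18.02-fold and 10.2-fold and at 7.59-fold and 8.68-fold, the second of them higher in replicate 2.

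Class 6 semaphorins are transmembrane ligands of A-type plexins, and with Ephb2 (9 regions) Sema6a and Sema6d had the most regions among guidance genes. Sema6a, a ligand of Plexin-A2 and Plexin-A4 that is known in oligodendrocytes, held 10 regions on chromosome 18. Of these, 3 lay far upstream, and the one 169 kb upstream was the strongest, with 36.7-fold and 26.1-fold enrichment and pileups of 209 and 101. The most distant, 279 kb upstream, had 27.8-fold and 21.2-fold enrichment. The region nearest to a start, 892 bp upstream of it, was weaker at 16.3-fold and 10.3-fold. That region lay inside the longer span of Sema6a in the reference gene table. Inside the gene as listed by the authors, 5 regions had lower folds of 4.59 to 15.9. Another lay 9110 bp beyond the end of the gene at 11.0-fold and 8.70-fold. The listed start nearest to each of the 10 regions was that of Sema6a. Sema6d had 9 regions, 8 of them inside a gene of 577.8 kb. At its start, 453 bp downstream, enrichment was among the lowest of all members, 5.18-fold and 4.58-fold. The strongest Sema6d region, 461 kb along the gene (chr2:124550402-124550826), had 16.6-fold and 10.6-fold enrichment. For Sema7a, the membrane-anchored semaphorin that binds integrins and Plexin-C1, the single region 10.6 kb inside the gene (chr9:57950434-57950898) had 25.2-fold and 22.3-fold enrichment, with pileups of 145 and 89.

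**Figure D3:**
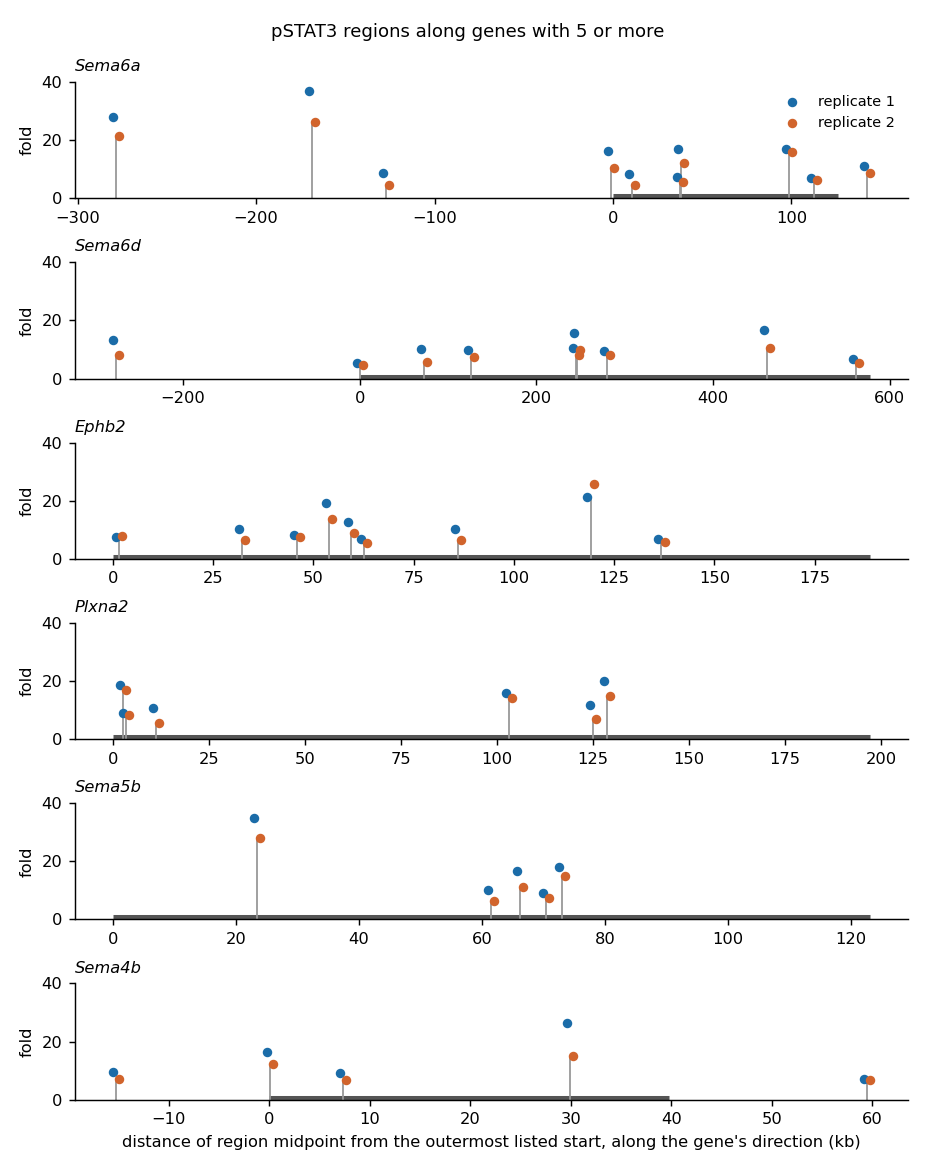
Panels show the 6 guidance genes with 5 or more listed regions, with the distance of each region midpoint from the outermost listed start in kb on the horizontal axis (positive into the gene) and its fold enrichment in replicate 1 (blue) and replicate 2 (orange) on the vertical axis, the points being set slightly apart. The dark bar, drawn from the outermost listed start, has the length of the gene in the reference gene table. The strongest Sema6a region stands 169 kb before the gene, while all regions of Ephb2, Plxna2 and Sema5b stand inside theirs.

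Ephrins, the membrane-bound ligands of Eph receptors, had 13 regions in 7 genes and a low median fold, with a median lower fold of 6.74. Efna1 was the family member with a strong region near its start. This region, at chr3:89280120-89280578, lay inside the gene, 704 bp upstream of an internal start, and had 21.2-fold and 16.4-fold enrichment, with pileups of 120 and 63. Its nearest listed start was that of Efna1. Efna3 and Efna4 shared 1 region (chr3:89339342-89339730, 14.6-fold and 10.6-fold), which lay 1.51 kb upstream of Efna4, 16.6 kb upstream of Efna3 and 816 bp from a start of Adam15. Both other Efna4 regions lay 9 and 312 bp from starts of Adam15 and had lower folds of 5.12 and 5.63. Efna2 had 4 regions 14.4 to 23.9 kb upstream, all nearer to starts of Midn or Cirbp, with lower folds of 4.56 to 7.68.

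No listed B-type ephrin had a region near its own start. Efnb2, a ligand that can also signal back into its own cell, had 3 regions 155 to 340 kb downstream of its start. All of them lay outside the gene, 135772 to 321143 bp beyond its listed 3′ end. The farthest was the strongest (chr8:8299207-8299702), with 20.9-fold and 13.2-fold enrichment. For Efnb3, a midline cue that is also known as a myelin inhibitor, the region lay 19.2 kb upstream and 59 bp from a start of Wrap53, at 12.2-fold and 8.74-fold. Efna5 was among the lowest members, with a single region inside the gene at 7.52-fold and 4.86-fold, for which a start of Gm25800 was nearer.

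Netrins, secreted laminin-like cues, had 11 regions in 4 genes and a median lower fold of 11.5, which rests on few regions. Ntn5 had the strong regions nearest to a start. At 1.29 kb upstream (chr7:45682423-45683049) enrichment was 25.4-fold and 17.4-fold, and at 3815 bp upstream (chr7:45680001-45680413) it was 25.2-fold and 14.3-fold. The start of Ntn5 was the nearest listed one for both. Ntn3 was listed with a region at chr17:24220222-24220978 of 32.7-fold and 23.0-fold enrichment, with pileups of 223 and 107. That region lay 11.2 kb upstream of Ntn3 but 92 bp from a start of 1600002H07Rik. Ntn4 had 4 regions, the strongest 24.9 kb beyond the end of the gene (chr10:93771855-93772409) with 24.4-fold and 16.5-fold enrichment, 6479 bp from a start of Gm3571.

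Ntn1, the netrin best known for attracting axons through DCC, had no reproducible region within 5 kb of a start. Its 3 regions lay 45.3, 172 and 198 kb from the nearest start, with 8.65-fold and 5.17-fold, 11.9-fold and 7.42-fold, and 16.8-fold and 11.5-fold enrichment in turn. A start of Mir6406 was nearer to the second and one of C78197 to the third. A weak replicate 1 peak of 3.67-fold lay 27 bp upstream of a Ntn1 start, and replicate 2 had no peak within 5 kb.

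Slits, secreted repellents that bind ROBO receptors, had 5 regions in 3 genes, all at least 16.7 kb from a start. Slit3 had 3 regions inside the gene. The strongest (chr11:35527679-35528340), 16.7 kb from its nearest start, had 25.7-fold and 17.7-fold enrichment. Slit2 was listed for a single region 518 kb upstream (chr5:47465299-47465793), at 18.5-fold and 15.9-fold, for which it was the nearest listed start. Slit1 had 8.79-fold and 5.41-fold enrichment 45.8 kb inside the gene. No slit had a reproducible region near a promoter, though weak peaks of both libraries overlapped at −2644 and −2596 from a Slit1 start (4.55-fold and 3.84-fold), and replicate 1 had a peak of 4.02-fold 1734 bp downstream of a Slit3 start.

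**Figure D4:**
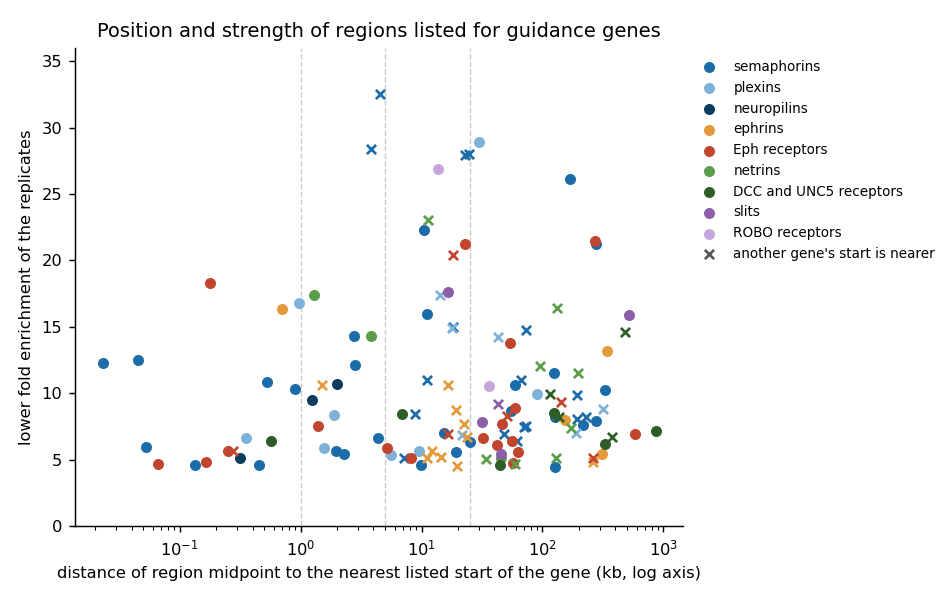
Each point is a pair of a guidance gene and a region listed for it, with the distance of the region midpoint to the nearest listed start of that gene (kb, log axis) and the lower fold enrichment of the replicates on the vertical axis, and dashed lines at 1, 5 and 25 kb. Colours give the family, and crosses mark regions for which another gene's start was nearer. The pairs within 1 kb reach 18.3 (Epha7), and the highest values, up to 32.5 (Sema4c), stand farther out.

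Plexins, the signalling receptors of semaphorins, held 14 regions in 6 genes with a median lower fold of 8.63. Plxna4, a receptor for class 3 and class 6 semaphorins, had the second strongest region of all guidance genes. It lay 29.9 kb inside the gene at chr6:32557941-32558577, with 33.6-fold and 28.9-fold enrichment and pileups of 191 and 112. The other 2 regions of Plxna4 lay 191 and 316 kb inside it, had lower folds of 7.04 and 8.86, and were also listed for its antisense names Plxna4os2 and Plxna4os3. Plxna2 had 6 regions inside the gene in a pair of groups. Near its starts, the region at chr1:194620468-194621116, 967 bp downstream, had 18.7-fold and 16.8-fold enrichment with pileups of 231 and 116. Farther in, at 103 to 129 kb from the outermost start, 3 regions had lower folds of 6.85 to 14.9, and a start of RP24-84B18.2 was nearer to these.

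Plxnc1, the receptor of Sema7a, had 22.8-fold and 17.4-fold enrichment 14.2 kb from a start (chr10:94829307-94829966), where a start of Gm24186 was nearer. Plxnb2, a receptor of Sema4c, had a region 356 bp downstream of a listed start (chr15:89170147-89170518), with 11.4-fold and 6.66-fold enrichment. RefSeq places the Plxnb2 starts farther upstream, at 89173951 and 89180788, so this region lay inside the gene by that annotation. For Plxna1 the region lay 90.7 kb upstream at 15.2-fold and 9.98-fold, and for Plxnd1, the receptor of Sema3e, it lay 17 bp beyond the 3′ end of the gene at 6.82-fold and 5.89-fold. Within 1 kb of a listed start, only Plxna2 and Plxnb2 among the 9 plexin genes had a region.

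Both neuropilins, the partners of plexins in binding secreted semaphorins, had regions just upstream of their starts and none elsewhere. Nrp1, which binds Sema3a, had 2 adjoining regions. The stronger, at chr8:128357311-128358373 and 1.23 kb upstream, had 16.4-fold and 9.47-fold enrichment with pileups of 93 and 36. The nearer, at chr8:128358548-128358964 and 317 bp upstream, had 8.57-fold and 5.12-fold with pileups of 48 and 19. Replicate 1 was higher in both. The 250 bases before the Nrp1 start are shown because the nearer region reaches into them, with summits at −234 in replicate 1 and −193 in replicate 2. They cover chr8:128358823-128359072 on the plus strand (RefSeq, GRCm38.p6), and the capitals mark the stretch from 5 bases before to 5 bases after the summits.
Nrp1: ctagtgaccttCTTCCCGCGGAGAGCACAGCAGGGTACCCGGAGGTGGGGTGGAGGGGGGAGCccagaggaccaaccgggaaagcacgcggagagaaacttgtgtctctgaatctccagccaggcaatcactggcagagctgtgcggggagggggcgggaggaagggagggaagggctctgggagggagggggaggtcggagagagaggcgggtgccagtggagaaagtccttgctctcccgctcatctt
Nrp2, which binds Sema3f, had 12.4-fold and 10.7-fold enrichment 2.00 kb upstream of a start (chr1:62701073-62701505), with pileups of 89 and 50.

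Eph receptors, the tyrosine kinase receptors of ephrins, held 24 regions in 11 genes with a median lower fold of 6.78. In 5 of the genes a region lay within 1 kb of a start, and these ranged from the strongest such region of any guidance gene to some of the weakest. Epha7 held the strongest. At chr4:28812692-28813215, its midpoint 178 bp upstream of a start, enrichment was 22.6-fold and 18.3-fold with pileups of 157 and 85. The sequence before the Epha7 start is shown as that of this strongest promoter region, and both summits lie in it, at −235 in replicate 1 and −227 in replicate 2. It covers chr4:28812881-28813130 on the plus strand (RefSeq, GRCm38.p6), and the capitals mark the stretch from 5 bases before to 5 bases after the summits.
Epha7: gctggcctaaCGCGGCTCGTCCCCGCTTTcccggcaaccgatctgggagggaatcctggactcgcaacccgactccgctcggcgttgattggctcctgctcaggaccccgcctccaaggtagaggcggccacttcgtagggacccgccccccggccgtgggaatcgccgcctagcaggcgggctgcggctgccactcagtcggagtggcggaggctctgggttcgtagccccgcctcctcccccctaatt
This window held no TTCNNNGAA repeat, and neither did those of Sema4b and Nrp1.

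The other regions of Eph receptors within 1 kb of a start were weaker. Epha4 had 7.70-fold and 5.63-fold enrichment 278 bp upstream, 86 bp from a start of Gm28386. Ephb4, the receptor of Efnb2, had 9.80-fold and 5.64-fold 0.25 kb upstream. Ephb6, which lacks kinase activity, had 6.61-fold and 4.86-fold 165 bp upstream. Ephb3 had 6.27-fold and 4.70-fold 66 bp downstream of an internal start, 6406 bp from the outermost listed one. The last 2 are among the 5 members with the lowest strongest region, with Epha3 (9.83-fold and 4.79-fold, 57.5 kb inside the gene), Efna5 and Unc50 (6.11-fold and 4.61-fold, 15 bp from its start).

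Regions of Eph receptors over 1 kb from a start ranged widely, from a lower fold of 4.79 (Epha3) to 21.5 (Epha5). Epha7 had 9.80-fold and 6.14-fold enrichment 41.9 kb from a start, below its promoter region. In Epha4, Epha5 and Ephb2 the strongest region was a distal one. Epha4, a receptor of both ephrin classes, had 22.9-fold and 20.4-fold enrichment 18.04 kb inside the gene (chr1:77496715-77497355), 267 bp from the start of Mir6352. Epha5 had its strongest region 274 kb upstream (chr5:84690648-84691221), at 26.7-fold and 21.5-fold with pileups of 168 and 91, and the start of Epha5 was the nearest listed. Ephb2 had 9 regions, all inside a gene of 188.8 kb. The strongest, at chr4:136716432-136717314 and 119 kb along the gene, had 21.2-fold enrichment in replicate 1 and 25.8-fold in replicate 2, with pileups of 176 and 116. It is the strongest of the few regions with a higher fold in replicate 2. Nearest to a start, 1405 bp downstream, Ephb2 had 7.53-fold and 7.98-fold enrichment, and the start of Ephb2 was the nearest listed for all 9 regions.

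DCC and UNC5 receptors, which bind netrins, had 10 regions in 4 genes with a median lower fold of 7.68, and 8 of the 10 lay over 25 kb from a start. Dcc, the receptor that mediates attraction, had 3 regions inside the gene, 125, 327 and 863 kb from the nearest start. The first of these was the strongest at 13.4-fold and 8.53-fold, with pileups of 91 and 39. At the Dcc start itself, replicate 1 had a peak of 2.13-fold and replicate 2 none. Unc5d, a receptor that mediates repulsion, had 21.7-fold and 14.6-fold enrichment 478 kb inside the gene (chr8:28740830-28741344), where a start of Gm26795 was nearer. Its promoter region, 567 bp upstream, had 7.70-fold and 6.40-fold. Unc5c had 3 regions, the strongest 116 kb inside the gene at 13.995-fold and 9.98-fold and nearer to a start of Gm15689, and Unc5a had 1 at 6.89 kb with 8.935-fold and 8.45-fold.

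Robo1, a receptor of slits, was the listed member of the ROBO family and had 2 regions. The stronger, at chr16:72649380-72649713, had 29.3-fold and 26.9-fold enrichment with pileups of 196 and 114. It lay 13.6 kb upstream of the start listed in the table, but inside the longer span of Robo1 in the reference gene table. The second, 36.3 kb inside the gene, had 12.7-fold and 10.6-fold. Regions above 25-fold in both libraries were listed for 7 guidance genes: Sema4c, Plxna4, Sema3b, Sema3f, Sema5b, Robo1 and Sema6a.

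The 17 guidance genes with no region listed were Efnb1, Epha1, Epha2, Epha6, Plxna3, Plxnb1, Plxnb3, Robo2, Robo3, Robo4, Sema4a, Sema4d, Sema4f, Sema4g, Sema6b, Sema6c and Unc5b. Peaks of single libraries were looked for within 5 kb of their RefSeq starts. Replicate 1 had one at 9 of the 17 and replicate 2 at 3, while 8 had none in either list. For all guidance genes with a RefSeq promoter entry, 40 of 59 (67.8%) had a replicate 1 peak in that window and 28 of 59 (47.5%) a replicate 2 peak, against backgrounds of 45.5% and 30.7% of 17492 protein-coding genes. Only for Robo2 and Sema4f did the strongest peaks of both libraries overlap, at 5.76-fold and 6.66-fold for Robo2 and at 5.25-fold and 4.86-fold for Sema4f. Among listed genes with no region within 5 kb, the strongest peaks of both libraries overlapped in that window for Sema3a and Slit1 as above, and for Epha3, Ephb1 and Plxnc1, at 3.52-fold to 6.12-fold. Plxnb1, the receptor of Sema4d, had a replicate 1 peak of 9.32-fold 2653 bp downstream, and its strongest replicate 2 peak (3.84-fold) did not overlap it. Sema4d, an inhibitor of oligodendrocyte differentiation, had a replicate 1 peak of 3.15-fold 3510 bp downstream and none in replicate 2. Unc5b had no peak in either library. Absence from the table does not always mean a gene without regions. Robo2 has 2 regions inside its RefSeq span on chromosome 16, at 8.42-fold and 6.22-fold (74738102 to 74738591) and at 10.7-fold and 8.45-fold (74847150 to 74847546), which the table lists for Gm26307 and Gm26937.

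Promoter sequences of guidance genes held few STAT-type repeats. RefSeq windows from 250 bases before to 50 bases after the start (GRCm38.p6) were searched for TTCNNNGAA, which reads the same on both strands, and for TTCCNGGAA, a narrower form contained in it. TTCNNNGAA occurred in 3 of 75 windows of guidance genes (4.00%), where 8.30% of all 32851 windows held it. Of windows overlapping a pSTAT3 region, 15.0% of all 2488 held it, and 7.75% of the windows that overlapped none. Among guidance genes 11 windows of 10 genes overlapped a region, and the one with the repeat was that of Sema3e shown above. For Epha4, Sema3c, Sema3e, Sema4c and Sema6d the summits of both libraries lay outside the window. Only part of the region was searched there, and the sequence at the summits was not. The others with a repeat, Efna3 and Epha3, overlapped no region. TTCCNGGAA occurred in 1.15% of all windows, in 5.63% of those overlapping a region and in none of the 75 of guidance genes. These counts describe the letters in a short window and say nothing of STAT3 binding elsewhere.

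Other genes of the guidance pathway were taken from 2 lists. Of 31 other cues and co-receptors, 4 had a region within 1 kb of a start, 7 (22.6%) within 5 kb and 12 (38.7%) within 25 kb, near the shares of all protein-coding genes. Of 51 intracellular signalling genes, 15 (29.4%) had one within 1 kb, 20 (39.2%) within 5 kb and 33 (64.7%) within 25 kb. At each window this was above the share of all protein-coding genes (12.8%, 18.1% and 34.4%). It was also above that of the 69 guidance genes (24.6%, 33.3% and 50.7%). Only regions within 5 kb of a start were ranked for the genes of both lists, and the strongest 3 lay within 1 kb. Gfra1, a co-receptor for the growth factor GDNF, had 28.7-fold and 25.7-fold enrichment 34 bp upstream. Dpysl2, a mediator of semaphorin signalling to microtubules, had 31.7-fold and 21.0-fold 311 bp upstream. Rtn4, which encodes the myelin inhibitor Nogo, had 31.9-fold and 20.5-fold 121 bp upstream. Each of these was above the strongest region within 1 kb of a start of a guidance ligand or receptor, that of Epha7 at 22.6-fold and 18.3-fold. Rac1, the GTPase through which many plexins and DCC act, had 6.78-fold and 6.34-fold 19 bp downstream, and Fyn, a kinase downstream of netrin signalling in oligodendrocytes, had 12.1-fold and 8.45-fold 3.45 kb upstream.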

How the data were processed

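For the 2 pSTAT3 ChIP libraries, the submitters' processing notes name CASAVA 1.8, Bowtie2, MACS2 and the genome build GRCm38.p3. Their options and peak threshold are not given in the sources used here. The input libraries were not analysed here. A peak list for each ChIP library and a table of reproducible regions were deposited. In the lists, pileup is a signal of stacked fragments and fold enrichment a ratio to local background, per the file headers. A pair of columns with damaged headers in the deposited lists hold −log10 p and −log10 q values, judged from their values. In the deposited table, the column headed adj p-value holds the IDR, 0.05 or less. The column headed pileup holds the replicates' mean −log10 p (12924 of 12925 regions, within 0.001). Neither it nor the column headed fold enrichment in that table was used as a fold. Reads per library are not given, so depth is known only through pileups (medians 30 and 20 over 42131 and 26537 peaks).

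Each region was given the strongest peak of each library overlapping it by at least 1 bp. Distance runs from the region midpoint to the nearest start of the gene among the table's Ensembl transcripts. For each region the table lists the nearest transcript and any others up to 25 kb away. Starts and positions are 1-based. Backgrounds cover the protein-coding genes of a RefSeq table (GRCm38.p6, matched by symbol), promoter sequences are RefSeq's for the same build, and all 69 guidance genes had a start in one of these sources. No test was made, since the data hold 1 condition. Members, lists and windows were chosen with earlier results of these data known. Genes were named as the 25 with the highest lower fold, those whose region lay within 1 kb, the 5 lowest, and 13 textbook cues and receptors. Other genes were named after their values were seen. Python 3.11.15, numpy 2.4.6, pandas 2.3.3 and matplotlib 3.10.9 were used, and the overlap step was tested on simulated data. Alternatives were an IDR of 0.01, a −log10 q of at least 10, overlap of 50%, each library alone, other windows, summits for midpoints, and RefSeq promoter starts, the last chosen after seeing the data.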

Additional observations from a re-analysis of the deposited data

How the results depend on the processing

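The count of 129 regions and 24 names with a region within 5 kb (Unc50 included) kept within 1.5 times under an IDR of 0.01 (108 and 19), a −log10 q of at least 10 in both libraries (97 and 17) and RefSeq promoter starts (98 and 18). That last setting leaves out 12 names with no start in the promoter table used: Dcc, Efnb3, Ntn1, Plxna1, Plxna4, Plxna4os2, Plxna4os3, Sema3b, Sema3f, Sema6a, Slit1 and Unc5d. Of the 7 guidance genes with the strongest regions it thus covers only Sema4c, Sema5b and Robo1. An IDR of 0.01 and the −log10 q limit left 9 names without a region each, among them Efna5, Epha3, Epha8, Ephb3, Ephb6 and Plxnd1 in both. Counting only regions whose nearest start is a member's left 80. Peaks of single libraries gave 234 to 350 regions and 32 to 41 names, with a median fold of 4.90 to 5.05. This setting counted summits inside or within 25 kb of a listed transcript of a member. Peaks without a partner then count and regions listed from farther away do not, so the measure differs from that of the 129 regions. The median lower fold of 8.10 became 9.85 under the −log10 q of at least 10, and 10.6 when the fold of replicate 1 was used. The share within 1 kb of 13.95% became 25.6% with a window of 5 kb. Starts of the RefSeq gene table were not run because that table gives no strand. No paired analysis was possible because the ChIP libraries form 1 group. With 2 libraries and unknown read depth, a gene without a region may carry one below the threshold.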

Other observations

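Of the 129 regions, 5 had a higher fold in replicate 2 than in replicate 1: 2 of Ephb2 (21.2-fold and 25.8-fold, 7.53-fold and 7.98-fold), 1 of Sema4c (10.9-fold and 11.65-fold), 1 of Sema5a (7.59-fold and 8.68-fold) and 1 of Efna2 (6.73-fold and 6.91-fold). Pileup was higher in replicate 1 at all 5, with 176 and 116 fragments at the strongest Ephb2 region.

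Ligands and their receptors were both listed in several pairs, with unequal strength. Sema3e had 16.6-fold and 12.5-fold enrichment at its start and its receptor gene Plxnd1 had 6.82-fold and 5.89-fold at its 3′ end. Sema7a had 25.2-fold and 22.3-fold and its receptor gene Plxnc1 22.8-fold and 17.4-fold, both inside the gene. Sema4d and its receptor gene Plxnb1 were both without a listed region. These pairs were picked after their values were seen, and no relation between ligand and receptor genes was tested.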
